A study of Mus musculus with 4 samples.

Results

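The globin and erythroid genes described here are Hba-a1, Hba-a2, Hbb-bs, Hbb-bt, Alas2, Slc4a1 and Ahsp, 7 genes of red blood cells. The list was chosen by its counts in these same tumours, as higher in mice given small extracellular vesicles (sEVs), so the difference of its genes between the groups is a description and carries no test. GENCODE M21 symbols matched 6 of the 7 to an Ensembl ID among the 43432 genes of the count table, and Ahsp was not analysed here. All 6 were among the 13823 genes that passed a filter on low counts. Messenger RNA was sequenced from 4 subcutaneous tumours in female C57BL/6 mice, grown from 9464D-GD2, a mouse neuroblastoma line that displays the ganglioside GD2. In 2 of them the mice had received 25 µg of the anti-GD2 antibody dinutuximab together with 20 µg of sEVs made by 9464D-GD2 cells. In the other 2 they had received 25 µg of dinutuximab alone. All 4 mice were thus under the antibody, at 2 doses per week and 5 treatments in all, and no untreated tumour was analysed here. The parent line 9464D comes from a mouse in which a tyrosine hydroxylase promoter drives human MYCN, and a single line was used for the tumours and the vesicles. Tumours are named below by the numbers 3 and 4 that each group has in the labels.

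Haemoglobin is a tetramer of alpha and beta chains, each holding a haem group. Its genes are transcribed at very high rates in developing red cells, and mouse red cells leave the marrow as reticulocytes, which have no nucleus but keep globin mRNA for a short time. In a tissue that makes no red cells, globin mRNA is usually taken as a sign of blood. Alas2, which encodes the red cell form of the first enzyme of haem synthesis, and Slc4a1, which encodes the anion exchanger band 3 of the red cell membrane, are made in developing red cells as well.

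The libraries held between 24452699 and 28187573 counts. In them the transcription factor genes Hand2 and Isl1 of the sympathetic lineage were well measured, at 144.6 CPM or more and 15.7 CPM or more. Other defining genes of that lineage were not: Dbh had 0 counts in every tumour and Th at most 3. CPM is a count scaled by the library total and its TMM factor. The 10 listed genes of the lineage summed to 405 and 373 CPM in the sEV tumours 3 and 4, against 350 and 383 CPM in the dinutuximab tumours 3 and 4, so the label is borne out in part of its markers.

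The beta globin gene Hbb-bs had the highest level of the members. It had 45.6 and 28.7 CPM in the sEV tumours 3 and 4, against 24.5 and 14.3 CPM in the dinutuximab tumours 3 and 4. Both sEV tumours lay above both dinutuximab tumours, but sEV tumour 4 and dinutuximab tumour 3 were close, at 1.17-fold. The mean was 37.1 ± 12.0 CPM with sEVs and 19.4 ± 7.20 CPM without (SD, n = 2 each), a log2 fold change of 0.94 ± 0.29 (SE). Among the genes of these tumours Hbb-bs ranked near the middle: 64.3% and 52.4% of tested genes had lower CPM in the sEV tumours, and 49.0% and 38.1% in the dinutuximab tumours. In bulk tissue, fewer cells of a type and less RNA per cell cannot be told apart.

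The alpha globin gene Hba-a1 had 12.9 and 7.21 CPM in sEV tumours 3 and 4, against 5.77 and 3.81 CPM in dinutuximab tumours 3 and 4 (log2 fold change 1.07 ± 0.33, SE). Its copy Hba-a2 had 4.74 and 2.91 CPM in the sEV tumours, against 1.71 and 1.35 CPM in the dinutuximab tumours (1.31 ± 0.36). For both genes the 4 tumours stood in the same order as for Hbb-bs, and the groups did not overlap. The second adult beta globin gene, Hbb-bt, had 4.89 and 2.60 CPM in the sEV tumours, against 2.26 and 1.35 CPM in the dinutuximab tumours (1.05 ± 0.41). Its values in sEV tumour 4 and dinutuximab tumour 3 rested on 75 and 58 counts, with exact Poisson 95% intervals of 59.0 to 94.0 and 44.0 to 75.0 counts that overlap. For Hba-a1 the intervals of these same tumours also overlapped in CPM, at 6.26 to 8.26 in sEV tumour 4 against 4.88 to 6.78 in dinutuximab tumour 3. These intervals, and the Wilson intervals below, cover counting error only.

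The Alas2 gene had 1.87 and 0.936 CPM in sEV tumours 3 and 4, against 0.741 and 0.369 CPM in dinutuximab tumours 3 and 4, from 49, 27, 19 and 9 counts. The intervals of sEV tumour 4 (0.617 to 1.36 CPM) and dinutuximab tumour 3 (0.446 to 1.16 CPM) overlapped. Alas2 kept the tumour order of the globins, with a log2 fold change of 1.32 ± 0.52 (SE). Slc4a1 had 0.764 and 1.04 CPM in the sEV tumours, against 0.117 and 0.164 CPM in the dinutuximab tumours. These rest on 20, 30, 3 and 4 counts, and here tumour 4 was above tumour 3 in both groups. The groups lay farther apart for Slc4a1 than for the other members, at a log2 fold change of 2.65 ± 0.55 (SE). The ratio of its summed counts, scaled to library size, was 6.50, with an exact 95% interval for counting error of 2.93 to 17.0. Slc4a1 passed the low count filter only through the sEV tumours, and its list was chosen as higher there. The interval is therefore no test of a difference, and nothing is read from the wider gap.

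**Figure D1:**
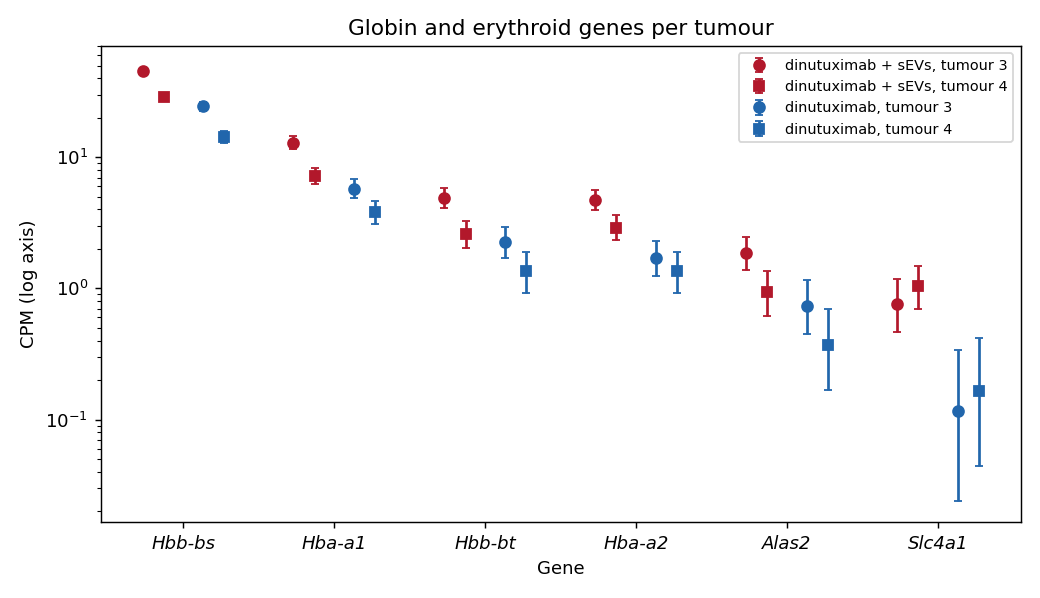
Level of each of the 6 measured members in each tumour, in CPM on a log axis, with exact Poisson 95% intervals for counting error. Points of the 2 tumours given dinutuximab plus sEVs are red and stand left of the 2 given dinutuximab alone, in blue. For all 6 genes both red points lie above both blue points, and for 5 of them tumour 3 lies above tumour 4 in each group.

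All 6 members had a positive log2 fold change, where 50.3% of the 13823 tested genes did, and in all 6 both sEV tumours lay above both dinutuximab tumours, as in 18.1% of tested genes. All 6 had a log2 fold change above 0.9, a value set after the members were seen, as had 1.1% of tested genes. Since the members were chosen for being higher, nothing is read from these counts. The median log2 fold change was 1.19 over the 6 and 1.06 over the 4 globins, against 0.00 over all tested genes. Over the whole table the quasi-likelihood test of edgeR, after Benjamini-Hochberg adjustment, called 0 genes (0%) higher and 0 (0%) lower. At an unadjusted p under 0.05 there were 341 higher (2.47%) and 429 lower (3.1%). limma-voom also called 0 in each direction, and DESeq2 called 17 higher and 38 lower.

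The globins and Alas2 also differed within each group. The ratio of tumour 3 to tumour 4 in the sEV group ran from 1.59 for Hbb-bs to 2.0 for Alas2. In the dinutuximab group it ran from 1.27 for Hba-a2 to 2.01 for Alas2. Across groups, the ratio of sEV tumour 4 to dinutuximab tumour 3 was between 1.15 for Hbb-bt and 1.70 for Hba-a2, while for Slc4a1 it was 8.90. The order sEV 3, sEV 4, dinutuximab 3, dinutuximab 4 was seen in 5 of 6 members, all but Slc4a1, and in 5.72% of all tested genes. When sEV tumour 3 was left out, the globin median was 0.57 in place of 1.06, and without dinutuximab tumour 4 it was 0.76. It was 1.43 without sEV tumour 4 and 1.43 without dinutuximab tumour 3. Slc4a1 stayed between 2.41 and 2.90 in these 4 fits.

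**Figure D2:**
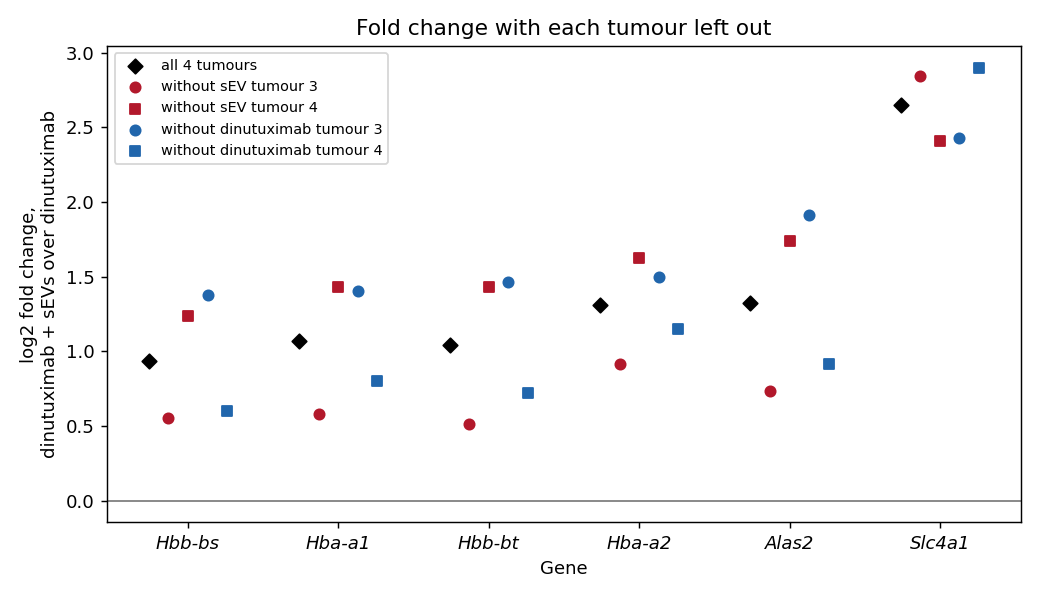
Log2 fold change of each member, dinutuximab plus sEVs over dinutuximab, in the edgeR fit with all 4 tumours (black) and with 1 tumour left out (red for sEV tumours, blue for dinutuximab tumours). All values are positive; the globins and Alas2 are lowest without sEV tumour 3 or dinutuximab tumour 4, and Slc4a1 stays between 2.41 and 2.90.

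Levels between genes can be compared only per length of exon, and for the globins only roughly, because their copies share much sequence. Per kilobase, Hbb-bs averaged 48.4 CPM in the sEV tumours and 25.2 CPM in the dinutuximab tumours, over 768 exon bases. Hba-a1 came next, at 12.4 and 5.90 CPM per kilobase. Then came Hba-a2 at 5.73 and 2.30 and Hbb-bt at 5.33 and 2.57 CPM per kilobase, which differ by less than the spread between tumours. Alas2, over 2403 exon bases, averaged 0.584 CPM per kilobase with sEVs and 0.231 without, and Slc4a1, over 4891, averaged 0.184 and 0.0287.

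The split of counts between copies of a globin is uncertain, because the copies are nearly the same sequence. How reads that fit both copies were counted is not known here. If they were left out, the globin levels, ranks and shares given here are not true levels. In their coding parts, counted from the A of the start codon as position 1, Hba-a1 and Hba-a2 differ at 1 of 426 bases, C381T, and Hbb-bs and Hbb-bt at 1 of 441 bases, C417T. Of the 50-base words in the Hba-a2 transcript, 86.9% also occur in that of Hba-a1, and of those in Hbb-bt 58.3% occur in Hbb-bs. The stretches around the differing base, which is in capitals, are shown because, in the coding part, only reads over that base tell the copies apart; they are from the GENCODE M21 transcripts.
Hba-a1, coding bases 361 to 401: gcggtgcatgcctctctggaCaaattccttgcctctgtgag
Hba-a2, coding bases 361 to 401: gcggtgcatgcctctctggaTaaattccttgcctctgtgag
Hbb-bs, coding bases 397 to 437: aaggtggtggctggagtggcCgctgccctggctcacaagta
Hbb-bt, coding bases 397 to 437: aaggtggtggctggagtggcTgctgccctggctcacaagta
The share of a copy was nevertheless alike across tumours. Hba-a2 took 26.8% and 28.8% of the alpha counts in sEV tumours 3 and 4, against 22.9% and 26.2% in dinutuximab tumours 3 and 4. Hbb-bt took 9.68% and 8.31% of the beta counts in the sEV tumours, against 8.45% and 8.64% in the dinutuximab tumours, all inside each other's Wilson 95% intervals (6.22% to 11.9% at the widest). With the counts of each pair of copies summed before the fit, the globin median was 1.04.

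The genes lie at separate loci on GRCm38. Hba-a1 (ENSMUSG00000069919) spans 32283511 to 32284465 and Hba-a2 (ENSMUSG00000069917) 32296489 to 32297298, both on the plus strand of chromosome 11. On the minus strand of chromosome 7, Hbb-bt (ENSMUSG00000073940) spans 103812524 to 103813996 and Hbb-bs (ENSMUSG00000052305) 103826534 to 103828096. Alas2 (ENSMUSG00000025270) lies on the plus strand of chromosome X, from 150547375 to 150570638, and Slc4a1 (ENSMUSG00000006574) 102348824 to 102366203 on the minus strand of chromosome 11. All are protein-coding. Alas2 shares 311 exon bases with Apex2, a DNA repair nuclease gene on the opposite strand. The strand setting of the counting is not given in the sources used here, so part of the Alas2 counts could belong to Apex2. Apex2 had 26.1 and 30.6 CPM in sEV tumours 3 and 4, against 26.2 and 24.3 CPM in dinutuximab tumours 3 and 4, an order other than that of Alas2.

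The 150 bases before the RefSeq transcription start are shown for 5 members. These are the genes with an entry in the set of RefSeq promoter windows used here (GRCm38.p6), in which Slc4a1 had none. They are also the 5 that ran in parallel over the tumours. These starts differ from the GENCODE bounds given above: the Hba-a1 and Hbb-bs windows lie inside the GENCODE gene and the other 3 overlap its edge. Capitals mark 4 motifs, searched on both strands: the CACCC box (CACCC), bound in red cells by KLF1; the CCAAT box (CCAAT); the TATA box (TATAA); and the GATA motif (NGATAN, with A or T first and A or G last), bound by GATA1. Where hits of 1 motif or of different motifs touch or overlap, they form a single run of capitals.
Hba-a1, chr11:32283522-32283671, plus strand: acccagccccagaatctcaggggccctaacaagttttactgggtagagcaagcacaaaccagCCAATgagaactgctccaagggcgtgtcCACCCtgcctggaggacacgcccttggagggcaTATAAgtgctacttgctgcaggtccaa
Hba-a2, chr11:32296342-32296491, plus strand: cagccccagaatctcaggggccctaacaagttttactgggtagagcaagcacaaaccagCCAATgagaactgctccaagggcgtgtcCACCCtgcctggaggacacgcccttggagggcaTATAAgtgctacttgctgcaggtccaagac
Hbb-bs, chr7:103827929-103828078, minus strand: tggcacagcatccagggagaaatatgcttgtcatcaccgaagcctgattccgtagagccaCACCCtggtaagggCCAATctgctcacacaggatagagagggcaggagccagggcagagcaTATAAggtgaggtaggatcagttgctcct
Hbb-bt, chr7:103813924-103814073, minus strand: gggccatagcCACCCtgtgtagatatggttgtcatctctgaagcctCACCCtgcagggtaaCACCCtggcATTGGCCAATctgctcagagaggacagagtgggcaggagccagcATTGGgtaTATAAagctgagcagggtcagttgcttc
Alas2, chrX:150547267-150547416, plus strand: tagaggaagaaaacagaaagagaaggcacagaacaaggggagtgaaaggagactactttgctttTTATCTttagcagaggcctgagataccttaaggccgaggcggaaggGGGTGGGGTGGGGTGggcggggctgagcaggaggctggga
All 5 windows held the CACCC letters, as did 37.4% of all 32851 RefSeq promoter windows of this length. The 4 globin windows held CCAAT (24.5% of all windows) and a TATAA that begins between 30 and 27 bases before the start (TATAA anywhere in the window: 14.2%). The Alas2 window held neither of these, but held a GATA motif on the minus strand (16.0% of all windows). The Hba-a1 and Hba-a2 windows share an unbroken run of 147 bases, and those of Hbb-bs and Hbb-bt at most 14. A match is a description of letters and shows no binding.

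Genes around the alpha globin genes were read beside all tested genes, of which 18.1% lay above in both sEV tumours and 16.5% below. Most tested genes thus overlap between the groups, and nothing is read from an overlap here. Of 5 tested genes within 100 kb, log2 fold changes ran from -0.22 for Sh3pxd2b, an adaptor protein gene, to 0.08 for Mpg, a DNA glycosylase gene, and in all 5 the groups overlapped. Among them is Nprl3, whose introns hold the alpha globin enhancers, with 32.5 and 24.4 CPM in sEV tumours 3 and 4, against 26.1 and 27.97 CPM in dinutuximab tumours 3 and 4 (0.07 ± 0.18, SE). No tested gene lay within 100 kb of the beta globin genes. Other globin genes were near or at 0: of 8 listed, 7 had 0 counts in every tumour, among them the embryonic genes Hba-x, Hbb-y and Hbb-bh1. The 8th, Hbq1b, had 4 and 3 counts in the sEV tumours and 2 and 7 in the dinutuximab tumours.

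Whether reticulocyte genes followed the globins was read first from the ratio of counts within a tumour, which needs no library scaling. Alas2 made up 2.67% and 2.21% of the Alas2 and globin counts in sEV tumours 3 and 4, against 2.12% and 1.74% in dinutuximab tumours 3 and 4. Their Wilson 95% intervals all overlap, the widest running from 0.918% to 3.28%, so that no difference was detectable at this depth. Slc4a1 made up 1.11% (0.718% to 1.71%) and 2.45% (1.72% to 3.48%) of the Slc4a1 and globin counts in the sEV tumours. In the dinutuximab tumours it made up 0.341% (0.116% to 0.996%) and 0.781% (0.304% to 1.99%). Both sEV tumours were above both dinutuximab tumours, but the interval of dinutuximab tumour 4 overlaps those of both sEV tumours, and that of dinutuximab tumour 3 overlaps that of sEV tumour 3. With both genes together, the log2 ratio to the globins averaged -4.53 ± 0.22 with sEVs and -5.26 ± 0.04 without (SD, n = 2 each), a difference of 0.73. The difference was 0.31 for Alas2 alone, without Slc4a1. The 2 genes together had 69 and 57 counts in sEV tumours 3 and 4, and 22 and 13 in dinutuximab tumours 3 and 4. As a share of their own and the globin counts, their Wilson 95% intervals all overlap, for example 2.95% to 4.68% in sEV tumour 3 and 1.46% to 4.22% in dinutuximab tumour 4. The SDs do not give this counting error. Since the members were chosen as higher with sEVs, nothing is read from the difference.

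**Figure D3:**
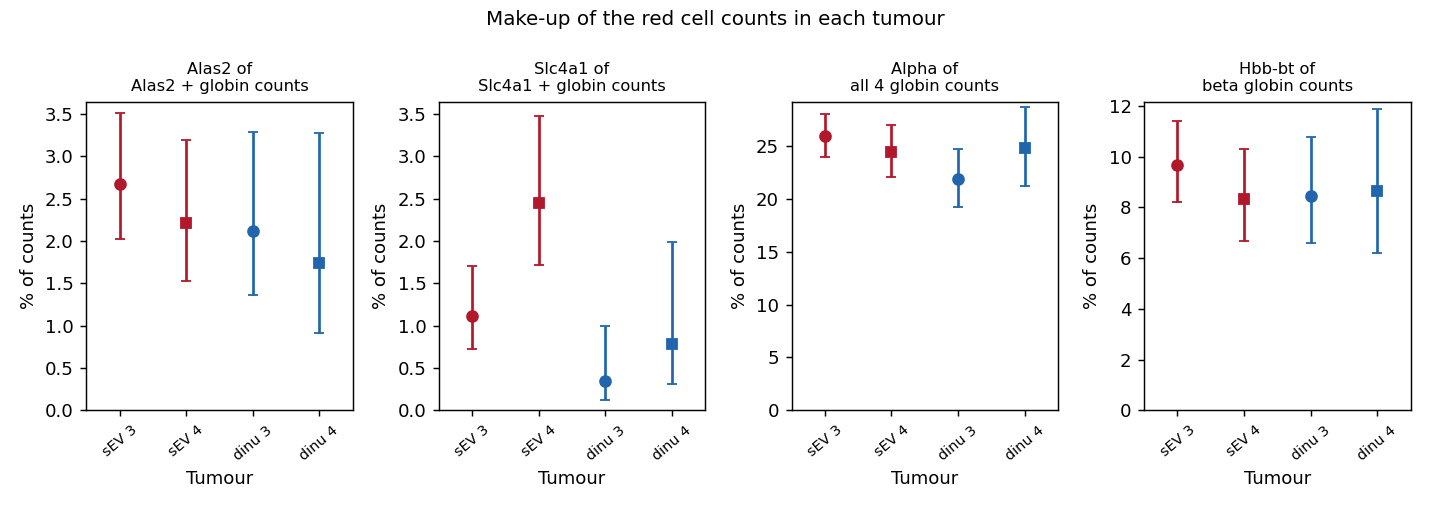
Make-up of the red cell counts in each tumour, as a percentage of counts with Wilson 95% intervals: Alas2 of Alas2 and globin counts, Slc4a1 of Slc4a1 and globin counts, alpha of all 4 globin counts, and Hbb-bt of beta counts. Red points are dinutuximab plus sEVs and blue points dinutuximab alone. The Alas2 and Hbb-bt shares overlap in all 4 tumours, and the Slc4a1 share is highest in sEV tumour 4, at 2.45%.

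Alpha and beta globin counts were compared within each tumour. Alpha counts made up 25.9% and 24.5% of globin counts in sEV tumours 3 and 4, against 21.9% and 24.8% in dinutuximab tumours 3 and 4. The lowest share had a Wilson 95% interval of 19.3% to 24.7% and the highest 23.96% to 28.02%, which overlap. All 4 globins together had 1785 and 1194 counts in the sEV tumours and 878 and 508 in the dinutuximab tumours. As a share of all counts that is 0.00682% and 0.00424% with sEVs, and 0.00334% and 0.00208% with dinutuximab alone.

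A further 66 genes of red cells and their precursors were read in the same fit. They come from 5 lists that the choice of members did not use, but that were drawn up with earlier results of these data known. Of the 66 genes 39 passed the filter. In the same edgeR test 0 were higher and 0 lower with sEVs (background 0% each way), and the lowest adjusted p was 0.807. Their median log2 fold change was 0.03, 23 of 39 (59.0%) were positive where 50.3% of all tested genes were, and both sEV tumours lay above both dinutuximab tumours in 6 of 39 (15.4%, background 18.1%). At an unadjusted p under 0.05, 0 were higher (2.47% of all tested genes) and 2 lower (3.1%), Epor and Tent5c. The tumour order of the globins was seen in 4 of the 39, against 5.72% of all tested genes: Fech, Abcb10, Car2 and Tmod1.

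Of 11 tested genes of haem synthesis, 9 had positive values and the median was 0.14. Most are made in every cell. Fech, the enzyme that inserts iron into haem, averaged 78.6 ± 0.797 CPM in the sEV tumours and 66.8 ± 1.85 CPM in the dinutuximab tumours (SD, n = 2 each; log2 fold change 0.24 ± 0.12, SE). Alas1, the form of the first enzyme used outside red cells, had 0.14 ± 0.15 and Urod 0.03 ± 0.15. Both overlapped between the groups.

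Red cell membrane genes were mixed, with 4 of 10 tested positive and a median of -0.10. The water channel gene Aqp1 had 898 and 491 CPM in sEV tumours 3 and 4, against 502 and 498 CPM in dinutuximab tumours 3 and 4. It was high in a single tumour, sEV 3. Likewise Add2, a membrane skeleton gene, had 15.2 and 6.52 CPM in the sEV tumours, against 6.51 and 7.90 CPM in the dinutuximab tumours. Without sEV tumour 4, edgeR called Aqp1 and Add2 higher (Benjamini-Hochberg adjusted p of 0.00197 and 0.00779), with sEV tumour 3 standing alone for its group. Gypc, a glycophorin gene, had 0.06 ± 0.14 and Epb41, which encodes protein 4.1, -0.24 ± 0.13 (log2 fold change, SE).

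Genes used in the reticulocyte cytoplasm gave a median of 0.04, with 8 of 13 positive. Among them Tfrc, the transferrin receptor gene, averaged 530 ± 185 CPM with sEVs and 590 ± 16.8 CPM without (SD, n = 2 each), a log2 fold change of -0.16 ± 0.21 (SE). Prdx2, a peroxiredoxin gene, had 0.04 ± 0.15, Bnip3l, a mitophagy receptor gene, 0.11 ± 0.15 and Xpo7, an exportin gene, -0.07 ± 0.12. All are abundant in these tumours, at 115.3 CPM or more in each. Car2, the carbonic anhydrase gene, had 1.03 and 0.867 CPM in sEV tumours 3 and 4, against 0.624 and 0.409 CPM in dinutuximab tumours 3 and 4 (0.87 ± 0.45), and did not pass. Of 5 tested erythroid regulators 2 were positive. Ldb1 had -0.01 ± 0.13, Lmo2 -0.02 ± 0.16, Zfpm1 0.31 ± 0.30 and Epor, the erythropoietin receptor gene, -0.56 ± 0.20, with edgeR adjusted p between 0.807 and 0.999.

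**Figure D4:**
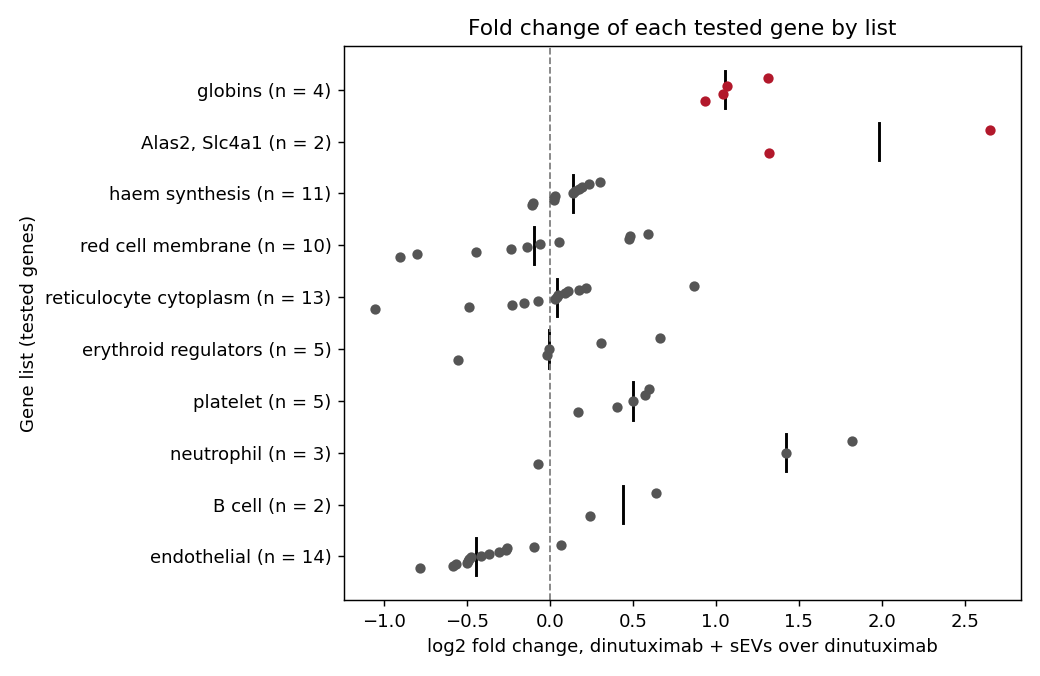
Log2 fold change of each tested gene, dinutuximab plus sEVs over dinutuximab, by list, with 1 point per gene and a black bar at the list median. Red points are the members, and the dashed line is the median of all tested genes (0.00). The 39 other erythroid genes spread around 0, with list medians from -0.10 to 0.14.

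The remaining 27 of the 66 genes were removed by the filter, and 9 of those had 0 counts in every tumour. The other 18 never exceeded 10 counts. Summed over the 27, there were 71 and 63 counts in sEV tumours 3 and 4, against 31 and 36 in dinutuximab tumours 3 and 4, or 2.71 and 2.18 CPM against 1.21 and 1.47 CPM. In 7 of the 18 both sEV tumours lay above both dinutuximab tumours, in 1 (Abcb6) both lay below, and in 10 they overlapped. Of the 7682 genes of the whole table removed by the filter and detected at no more than 10 counts, 8.89% had both sEV tumours above. Genes with a single count in all are among them and cannot have both sEV tumours above. That share was not matched to the 18 genes by count, so the shares are not compared. Those named here were named after their values were seen. Among the 7 were Rhag, the Rh-associated glycoprotein gene, with 3 and 1 counts in sEV tumours against 0 and 0 in dinutuximab tumours; Car1, with 2 and 4 against 0 and 1; Nfe2, an erythroid and megakaryocyte transcription factor gene, with 10 and 6 against 0 and 2; and Gfi1b and Bcl11a. At such counts single genes were not tested.

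Markers of other blood cells and of vessels were read beside these values. For platelets, 5 of 13 genes were tested and all 5 were positive (50.3% of all tested genes), with a median of 0.50. Both sEV tumours lay above both dinutuximab tumours in 3 of the 5 (background 18.1%). By edgeR 2 were higher at an unadjusted p under 0.05 (2.47% of all tested genes) and 0 after adjustment. The summed level of the 13 was 233 and 188 CPM in sEV tumours 3 and 4, against 148 and 137 CPM in dinutuximab tumours 3 and 4. Nearly all of it was Itgb3 and Pf4, which macrophages and other cells also express. Of the defining platelet genes, Gp1ba and Gp6 were at 0 in every tumour, and Gp9 had at most 3 counts. Others were detected at low counts. Itga2b had 40 and 23 counts in sEV tumours 3 and 4, against 22 and 17 in dinutuximab tumours 3 and 4. Gp1bb had 53 and 29 against 26 and 41, and Ppbp 17 and 12 against 10 and 10. Neutrophil genes summed to 4.43 and 6.59 CPM with sEVs and 3.43 and 5.98 CPM without. S100a8, a calprotectin subunit gene, had 13 and 11 counts with sEVs and 1 and 5 without (log2 fold change 1.82 ± 0.74, SE; edgeR adjusted p = 0.861). Of 13 neutrophil genes 3 were tested and 2 were positive, S100a8 and S100a9, the latter with 10 and 11 counts with sEVs and 6 and 1 without. Both passed the low count filter only through the sEV tumours, so nothing is read from their sign. The third, Csf3r, had 2.67 and 5.03 CPM with sEVs and 2.77 and 5.36 CPM without (-0.07 ± 0.41). Ly6g, Ngp and Elane were at 0 throughout. B cell genes summed to 2.75 and 3.15 CPM with sEVs and 1.99 and 2.25 CPM without, both of the 2 tested being positive.

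Of 14 endothelial genes, 13 had negative log2 fold changes and 1 a positive one, where 50.3% of all tested genes were positive, and the median was -0.45. By edgeR 0 of them were called lower after adjustment, and 2 at an unadjusted p under 0.05 (3.1% of all tested genes). Their summed level was 170 and 160 CPM in the sEV tumours, against 192 and 220 CPM in the dinutuximab tumours. In 8 of the 14 both sEV tumours lay below both dinutuximab tumours (background 16.5%). Pecam1, which encodes CD31, averaged 63.3 ± 5.25 CPM with sEVs and 81.5 ± 4.13 CPM without (SD, n = 2 each; log2 fold change -0.36 ± 0.13, SE), and did not pass (edgeR adjusted p = 0.804). Of 14 stress and immediate early genes that tissue handling can induce, 13 were negative and 1 positive, where 50.3% of all tested genes were positive. Their median was -0.37, at 565 and 564 CPM in sum with sEVs and 717 and 651 CPM without. In 9 of the 14 both sEV tumours lay below both dinutuximab tumours (background 16.5%). By edgeR 5 were lower at an unadjusted p under 0.05 (3.1% of all tested genes) and 0 after adjustment. The share of counts in 3 genes that collect ribosomal RNA reads (Gm42418, Gm26917 and Lars2) was 4.75% and 4.05% in the sEV tumours, against 5.69% and 5.94% in the dinutuximab tumours. The part of any of these in the globin values was not tested.

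The genes whose pattern over the 4 tumours was most like that of the globins were sought among 11370 tested genes of 1 CPM or more, by the root mean square distance of centred log2 CPM. The nearest 5 were Medag (0.132), Lrrc17 (0.163), Depp1 (0.175), Lpar1 (0.178) and Prrx2 (0.194). On the same measure the members Hba-a1, Hbb-bt, Hbb-bs, Hba-a2 and Alas2 lay between 0.0267 and 0.142, and Slc4a1 at 0.768. Medag had 9.32 and 7.001 CPM in sEV tumours 3 and 4, against 4.64 and 3.23 CPM in dinutuximab tumours 3 and 4. Prrx2, a homeobox gene of mesenchymal cells, had 10.7 and 7.14 CPM in the sEV tumours, against 3.78 and 3.19 CPM in the dinutuximab tumours. The 5 share the 4 libraries with the globins, and with so few points many genes come near any pattern.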

How the data were processed

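The authors deposited unnormalized counts by Ensembl ID, both in 1 table for all tumours and in separate ones, whose 173728 values were all equal. The mm10 build, STAR, SAMtools and HTSeq are named in the submitters' processing notes. Per the labels' protocols, libraries came from an Illumina stranded mRNA kit. Versions, annotation release and strand setting are not given in the sources used here. Symbols and coordinates came from GENCODE M21 (GRCm38), which named 42462 of 43432 IDs. The test was that of edgeR 4.0.16 in R 4.3.3: filterByExpr, TMM factors, the quasi-likelihood F test with the group as the only term, and Benjamini-Hochberg adjustment over 13823 genes at 0.05. Log2 fold changes are sEV over dinutuximab. The smallest adjusted p was 0.360. Biological replication (n = 2) is stated in the design text. Promoter windows came from RefSeq.

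Members and gene lists were chosen with earlier results of these data known. Named besides the members were up to 4 genes of highest mean CPM per list, called genes and the 5 of nearest pattern; others were named after their values were seen. The 3 ribosomal read genes and the genes within 100 kb were also chosen afterwards. The ratio to the globins added 0.5 to each sum of counts and was planned with Ahsp. The alternatives were DESeq2 1.42.0, limma-voom (limma 3.58.1), 3 scalings, 2 filters, the tumour number as a block, summed copies, the separate tables and omission of each tumour in turn, which takes the spread from the group that still has both. Fits were checked on simulated data. Intervals are at 95%. Some genes of the lists are not reported here.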

Additional observations from a re-analysis of the deposited data

How the results depend on the processing

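The globin median log2 fold change of 1.06 stayed positive in all 14 alternatives. Outside the fits that left out a tumour it ran from 1.01 (limma-voom) to 1.09 (total count scaling). In the fits that left out a tumour it ran from 0.57 (without sEV tumour 3) to 1.43. The median of all tested genes moved by less than 0.04 under any scaling. With a filter of 1 CPM in 2 libraries, Alas2 and Slc4a1 gave no value. The ratio of Alas2 and Slc4a1 to the globins, 0.73 higher with sEVs on the log2 scale, was 0.31 without Slc4a1, and ran from 0.58 to 0.88 with 1 tumour left out. The counts of called genes over the whole table, 0 higher and 0 lower, became 17 and 38 with DESeq2, 107 and 155 with no filter on low counts, and up to 160 higher and 156 lower with 1 tumour left out (0 and 0 at the lowest). Among the 39 other tested erythroid genes the count of 0 higher was 2, Aqp1 and Add2, without sEV tumour 4, and 0 in the other 3 such fits. The cause of these shifts was not tested. With the tumour number as a replicate block the counts were 21 higher and 46 lower, and the globin median 1.04. The numbers are not said to mark a shared source, and the deviations of same-numbered tumours correlated at 0.066 over genes, so the block was not used. Depth limits Alas2, at 9 to 49 counts, and Slc4a1, at 3 to 30.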

Other observations

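Genes that clear free haemoglobin, haem and iron were read as well. Of 11 tested, 8 had positive log2 fold changes and 3 negative, where 50.3% of all tested genes were positive, and the median was 0.17. Both sEV tumours lay above both dinutuximab tumours in 4 (background 18.1%) and below in 0 (background 16.5%). After Benjamini-Hochberg adjustment in edgeR 0 passed, and 1, Hp, was higher at an unadjusted p under 0.05 (2.47% of all tested genes). Fth1, the ferritin heavy chain gene, had 1429 and 2141 CPM in sEV tumours 3 and 4, against 2000 and 1606 CPM in dinutuximab tumours 3 and 4. Ftl1, the ferritin light chain gene, had 953 and 937 CPM with sEVs and 904 and 923 CPM without. Hmox1, the haem oxygenase gene, had 87.2 and 65.8 CPM with sEVs and 106 and 66.3 CPM without, higher in tumour 3 of each group. Lrp1, a receptor gene for haem bound to haemopexin, had 322 and 239 CPM with sEVs and 251 and 335 CPM without. Hp, which encodes the haemoglobin-binding plasma protein haptoglobin, was named after its values were seen. It had 23.8 and 6.93 CPM in the sEV tumours, against 3.82 and 3.28 CPM in the dinutuximab tumours, a log2 fold change of 2.11 ± 0.50 (SE; adjusted p = 0.535).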
